A study of Mus musculus with 2 samples.

Results

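The genes described here encode the hypoxia-inducible factors (HIFs), the enzymes that control them, the glycolytic pathway with its lactate and pyruvate branches, and a set of genes that respond to HIFs. They were chosen by name, with earlier results of these data known, so comparisons with all genes below describe the list and test nothing. The list holds 47 genes. Of these, 43 had a probe set on the array that carried no other gene symbol, out of 18194 genes represented in this way, and a gene's value is that of whichever of its probe sets had the largest mean of log2 signals. The other 4 genes, Gpi1, Pfkfb1, Eno1 and Bnip3l, have no single-symbol probe set in the annotation used and are not analysed here as members.

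RNA was measured in ovaries of C57BL/6 mice aged 24 to 28 d, of wild-type and of progesterone receptor (PR) knockout genotype, the latter also called PR null or PRKO. Both groups received 5 IU of PMSG, a gonadotropin that drives follicle growth, and 5 IU of hCG 48 h later, an ovulatory stimulus, and ovaries were collected at 11 h. Each genotype was represented by 1 Affymetrix mouse genome array, read from 100 ng of total RNA. The number of mice behind each RNA sample and the allele that disrupts the receptor gene are not given in the sources used here, and no label restricts the knockout to a cell type. With 1 array per genotype no difference has a replicate check and no p-value is given. Differences between the arrays due to genotype, to the individual animals and to RNA handling cannot be told apart.

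HIFs are transcription factors made of an oxygen-regulated alpha subunit, such as HIF1A or EPAS1 (HIF2A), and the constant partner ARNT. Prolyl hydroxylases of the EGLN family mark the alpha subunits for destruction by the VHL ubiquitin ligase when oxygen is present, so that much of the control of HIFs acts on protein and is not visible in RNA. HIF target genes raise glucose uptake, glycolysis and lactate export and restrain the entry of pyruvate into mitochondria. In the ovary, granulosa cells of the follicle are separated from blood vessels until ovulation and supply pyruvate and lactate to the oocyte, which makes little use of glucose itself.

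Signals are linear MAS5 intensities. The floor of an array was the median of its signals, controls left out: 36.2 for the wild type and 37.95 for the knockout. Values under the floor were raised to it, and a gene counted as measured if it reached the floor on at least 1 array. Differences are log2 signal in the knockout minus log2 signal in the wild type. Of the 43 genes, 42 were measured, 40 of them reaching both floors. Ldhd and Car9 passed through the wild-type array alone and so had to be lower in the knockout, and Ankrd37, which encodes a HIF-responsive ankyrin repeat protein, lay under both floors at 34.2 and 25.1.

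More genes of the set had lower than higher signal in the knockout ovary. Among those that reached both floors, the lactate exporter gene Slc16a3, the stress-response gene Ndrg1, the glucose transporter gene Slc2a1 and Hif1a differed most. The lactate dehydrogenase gene Ldhd differed more, but its brightest probe set passed through the wild-type array alone. Of the 42 measured genes, 25 were lower and 17 higher, or 59.5% lower against 42.3% of all 11317 measured genes, of which 57.7% were higher. At least 1.5-fold lower were 7 genes, 16.7% against a background of 4.75%, and 2 were at least 1.5-fold higher, 4.76% against 6.54%. At 2-fold, 3 were lower, 7.14% against 1.72%, and 0 were higher, against 1.15% of all measured genes. Among the 40 genes that reached both floors, 23 were lower and 17 higher, against 42.5% and 57.5% of the 10634 genes so measured. Past 1.5-fold, 6 of the 40 were lower and 2 higher, against 4.56% and 6.1%, and past 2-fold 2 were lower and 0 higher, against 1.57% and 0.978%. The median log2 difference of the set was -0.09, against 0.06 over all measured genes, whose quartiles were -0.14 and 0.27. The median of the set thus lay inside the quartiles of all genes, while many members lay below the lower quartile and some above the upper one. The split at 1.5-fold moved with scaling, to 9 lower and 1 higher after median centring and to 8 lower and 1 higher once the loess trend with signal was removed. Over all genes the same split, 538 lower and 740 higher as deposited, became 637 and 591, and 723 and 471, under those scalings, and 613 and 567 with quantile normalization, where the set had 7 lower and 2 higher genes. The 7 were not the same genes, as Ldha then lay inside 1.5-fold at -0.50 and Pfkfb4 outside it at -0.59.

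**Figure D1:**
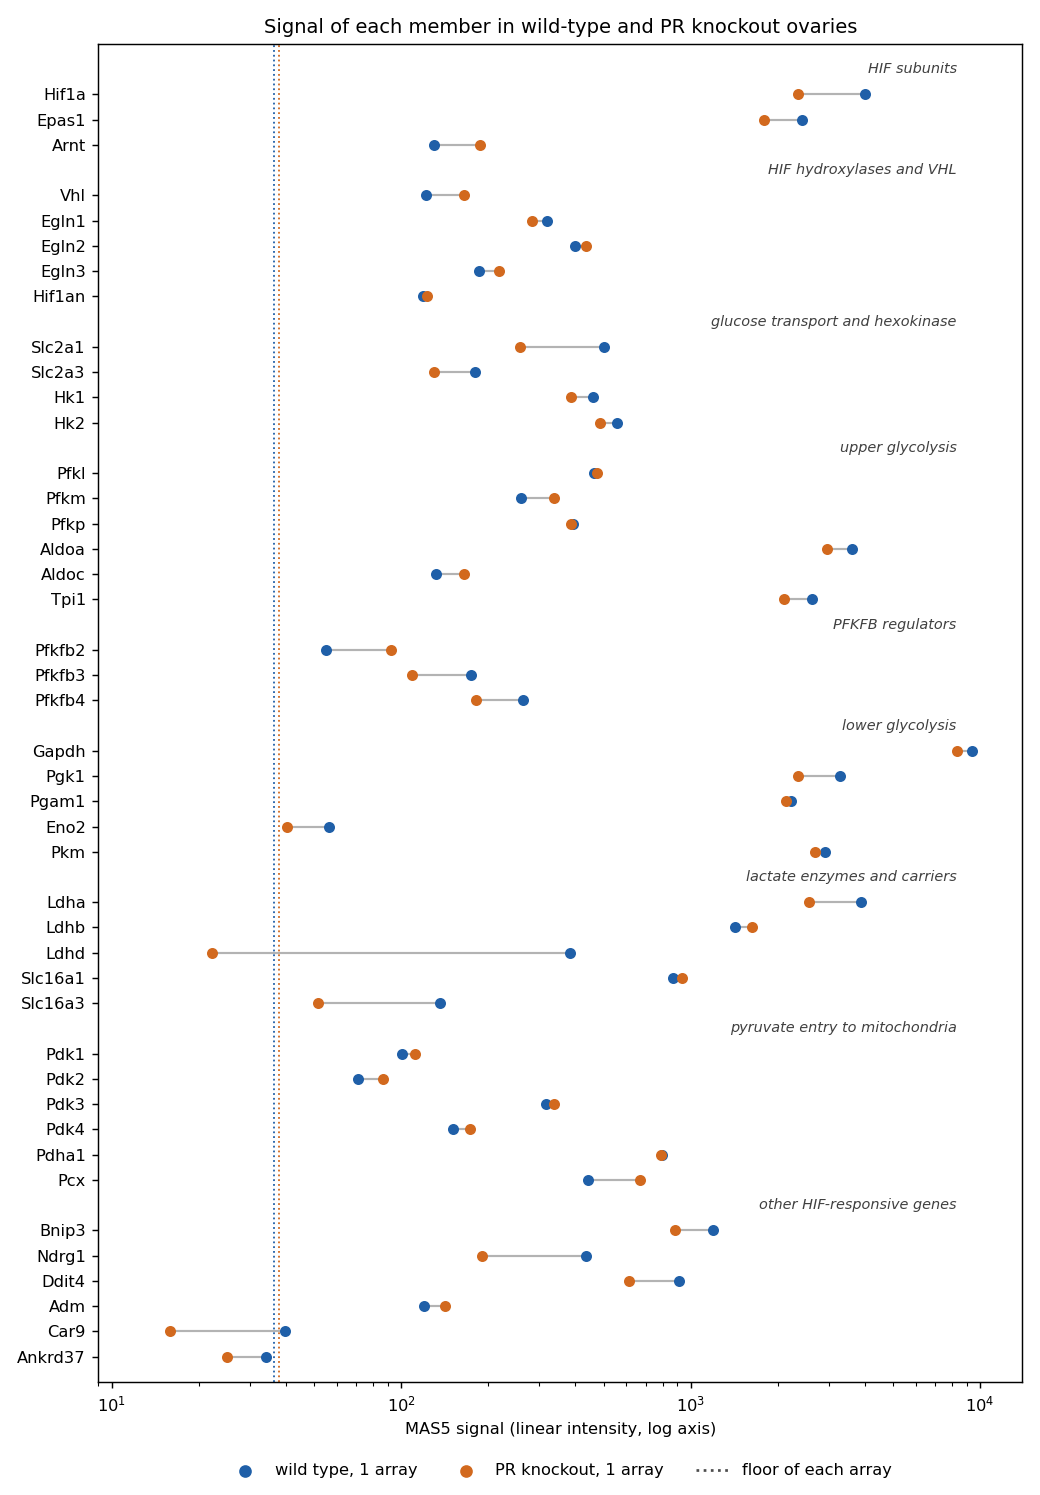
Signal of the brightest probe set of each of the 43 genes in wild type (blue) and knockout (orange), as linear MAS5 intensity on a log axis, grouped by role; dotted lines mark each array's floor. The longest line is that of Ldhd, from 384 in the wild type to 22.2 in the knockout.

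No genotype check comes from the receptor gene itself, whose brightest probe set gave 36.5 (wild type) and 42.8 (knockout), close to the floors. The ratio of 3' to 5' signal, a measure of RNA integrity, was 0.866 and 0.830 for Gapdh and 1.29 and 1.30 for Actb on the wild-type and knockout arrays. Ovarian cell markers were present on both arrays, with granulosa Inha at 8399 and 8073, steroidogenic Cyp11a1 at 11658 and 10744 and oocyte Zp3 at 322 and 345, in that order. Granulosa markers were higher in the knockout in 6 of 7 genes, with a summed signal of 14157 and 15463. Foxl2 was 1.53-fold and Inhba 1.60-fold higher. Of all measured genes, 57.7% were higher and 42.3% lower, shares to set beside each marker count. Luteinizing or theca markers were lower in 3 of 4, with sums of 31230 and 28606, Star being 1.47-fold lower. Stroma markers were higher in 4 of 5, with sums of 5723 and 7731. Tcf21 was 2.76-fold higher, at 498 and 1373, and Lum 1.79-fold higher, while Pdgfra was 1.33-fold lower. Endothelial markers were higher in 4 of 6 and lower in 2, with sums of 1042 and 1263, Tie1 being 1.94-fold higher. Oocyte markers were higher in 6 of 6, with sums of 2030 and 2182. Of the leukocyte markers 4 of 6 were measured, with sums of 521 and 596, and of the muscle markers 4 of 5, with sums of 6104 and 6122. All marker sums include the markers that lay under both floors. Red cell markers were measured in 1 of 3, with sums of 119 and 104 and Hba-a1 at 2.94 and 11.0, although a beta-globin probe set shared by 4 gene symbols gave 9059 and 7100. Of the defining markers, Hba-a1 and the muscle gene Ckm, at 22.5 and 17.0, lay under both floors. In ovarian RNA, fewer cells of a type and less RNA per cell cannot be told apart, and the part of these marker differences in the results below was not tested.

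Both oxygen-regulated HIF subunit genes had lower signal in the knockout. Hif1a, the broadly expressed alpha subunit, gave 4016 (wild type) and 2344 (knockout), 1.71-fold lower, and the log2 differences of its 3 measured probe sets lay between -0.78 and -0.60. Only 2.86% of measured genes had a more negative difference than Hif1a. Epas1, the alpha subunit found mainly in endothelial, interstitial and other specialised cells, gave 2415 and 1785, 1.35-fold lower, and its dimmer probe set gave 177 and 91.6, or -0.95 on the log2 scale. Arnt, the partner that both need, was higher by its brightest probe set, with 129.9 (wild type) and 187 (knockout), 1.44-fold higher. Its 3 measured probe sets ranged from -0.16 to 0.53, so the array gives no single direction for Arnt. In all 9 pairings of a Hif1a with an Arnt probe set, Hif1a was lower relative to Arnt, with log2 differences of -1.30 to -0.44. That count follows from the ranges above, and the pair was chosen after its values were seen. A common scaling factor cannot alter such a comparison within each array, but a trend with signal can, Hif1a being far brighter than Arnt. With the loess trend removed, Hif1a was at -0.70 and Arnt at 0.41. Relative to Epas1, Hif1a was lower in 3 of 6 pairings, with log2 differences of -0.34 to 0.35.

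The genes that hold HIFs in check were close to equal, with 4 of 5 slightly higher, against 57.7% of all measured genes. Their median was 0.13. Egln1, the main oxygen-sensing prolyl hydroxylase, gave 318 (wild type) and 284 (knockout), a log2 difference of -0.16. Egln2 gave 398 and 434, and Egln3, itself a strong HIF target in many cells, 186 and 218, or 0.23 on the log2 scale. Its other probe set passed the floor in the knockout alone, at 35.2 and 53.4, and so could only be higher. Hif1an, the asparagine hydroxylase that blocks HIF coactivator binding, gave 119 and 123, and the sign of its small difference turned under median centring, quantile normalization and loess. Vhl gave 122 and 165, 1.35-fold higher, but its other probe set gave -0.08. All 5 genes lay under 1.5-fold.

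Glucose uptake and phosphorylation genes were lower in 4 of 4, against 42.3% of all measured genes, with a median of -0.36. Slc2a1, which encodes the glucose transporter GLUT1, gave 500.1 (wild type) and 257 (knockout), 1.95-fold lower. Its other probe sets gave 414 and 197, and 244 and 142, so that the log2 differences ran from -1.07 to -0.79. All 3 probe sets of Slc2a1 lay past 1.5-fold and 1 of them past 2-fold. Slc2a3, the high-affinity transporter GLUT3, was 1.38-fold lower, at 179.6 and 129.7. Hexokinases, which trap glucose in the cell, differed less. Hk1 gave 458 and 386, and Hk2 gave 556 and 485, with log2 differences of -0.25 and -0.20. Relative to Slc2a3, Slc2a1 was lower in 3 of 3 pairings of probe sets, with log2 differences of -0.60 to -0.32. Relative to Hk2, Hk1 was lower in 1 of 2 pairings, with log2 differences of -0.05 to 0.17.

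Enzymes from glucose 6-phosphate to triose phosphate showed no common direction, with 3 of 6 lower, 3 higher and a median of 0.01 whose sign turned under 3 of 8 alternatives. Tpi1, triose phosphate isomerase, was 1.25-fold lower at 2616 and 2096, and 3 of 3 probe sets were lower. Aldoa, the main aldolase, was 1.21-fold lower at 3601 and 2965, but its 5 probe sets ran from -0.93 to 0.05. All 5 have names ending in x_at, a mark for probes that can bind related transcripts, so the value of Aldoa is uncertain. Aldoc, an aldolase best known from brain, gave 131.5 and 165, 1.26-fold higher. Among phosphofructokinases, the committed step of glycolysis, Pfkm (muscle type) was 1.30-fold higher at 259 and 337, while Pfkl (liver type) gave 465 and 474 and Pfkp (platelet type) 391 and 387. The sign of the Pfkl difference turned under median centring, loess and the mean over probe sets, its other measured probe set gave -0.23, and the 3 Pfkp probe sets ran from -0.13 to 0.15.

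The PFKFB enzymes, which set the level of fructose 2,6-bisphosphate, the activator of phosphofructokinase, were split. Pfkfb3, the HIF-responsive form with strong kinase activity, gave 174.9 (wild type) and 108.6 (knockout), 1.61-fold lower. Pfkfb4, another HIF-responsive form, gave 263 and 181, 1.45-fold lower. Pfkfb2, the form best known from heart, gave 55.2 and 92.3, 1.67-fold higher, from the 1 of its 4 probe sets that passed the floor. Pfkfb3 was thus 2.70-fold lower relative to Pfkfb2. Both ends of that ratio rest on 1 probe set and Pfkfb2 is dim. Pfkfb2 was at 0.44 and Pfkfb3 at -0.50 on the log2 scale with an offset of 50, and Pfkfb3 at -0.46 with the 70th-percentile floor, all under 1.5-fold, and Pfkfb2 was not measured with that floor.

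From glyceraldehyde 3-phosphate to pyruvate, 5 of 5 measured genes were lower, against 42.3% of all measured genes. All 5 lay under 1.5-fold, with a median of -0.18. That median was -0.02 with quantile normalization and -0.05 without the loess trend, where Gapdh was at -0.01 and -0.04 and Pkm at -0.02 and -0.05, so the group as a whole depended on scaling. Pgk1, phosphoglycerate kinase and a classical HIF target, gave 3279 (wild type) and 2346 (knockout), 1.40-fold lower. Its other probe sets gave 2624 and 1830, and 1493 and 872, or -0.52 and -0.78 on the log2 scale. Eno2, the neuronal enolase, was 1.39-fold lower at 56.3 and 40.4, close to the floors. Gapdh, often used as a reference gene, was 1.13-fold lower at 9384 and 8295, and 3 of 3 probe sets ran from -0.24 to -0.18. These 3 are the array's own control probe sets at the 5' end, middle and 3' end of the transcript, and Actb, another usual reference gene, differed by -0.31 in its brightest probe set. Pkm, pyruvate kinase, gave 2904 and 2686, and Pgam1 gave 2228 and 2139, with the sign of the Pgam1 difference turning under quantile normalization. Apart from Eno2 these genes are bright, and bright genes as a class were more often lower. Among the 1132 measured genes of highest signal the median was -0.05 and 58.7% were lower, while 9 of the 10 HIF and metabolic genes among them were lower, with a median of -0.30.

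**Figure D2:**
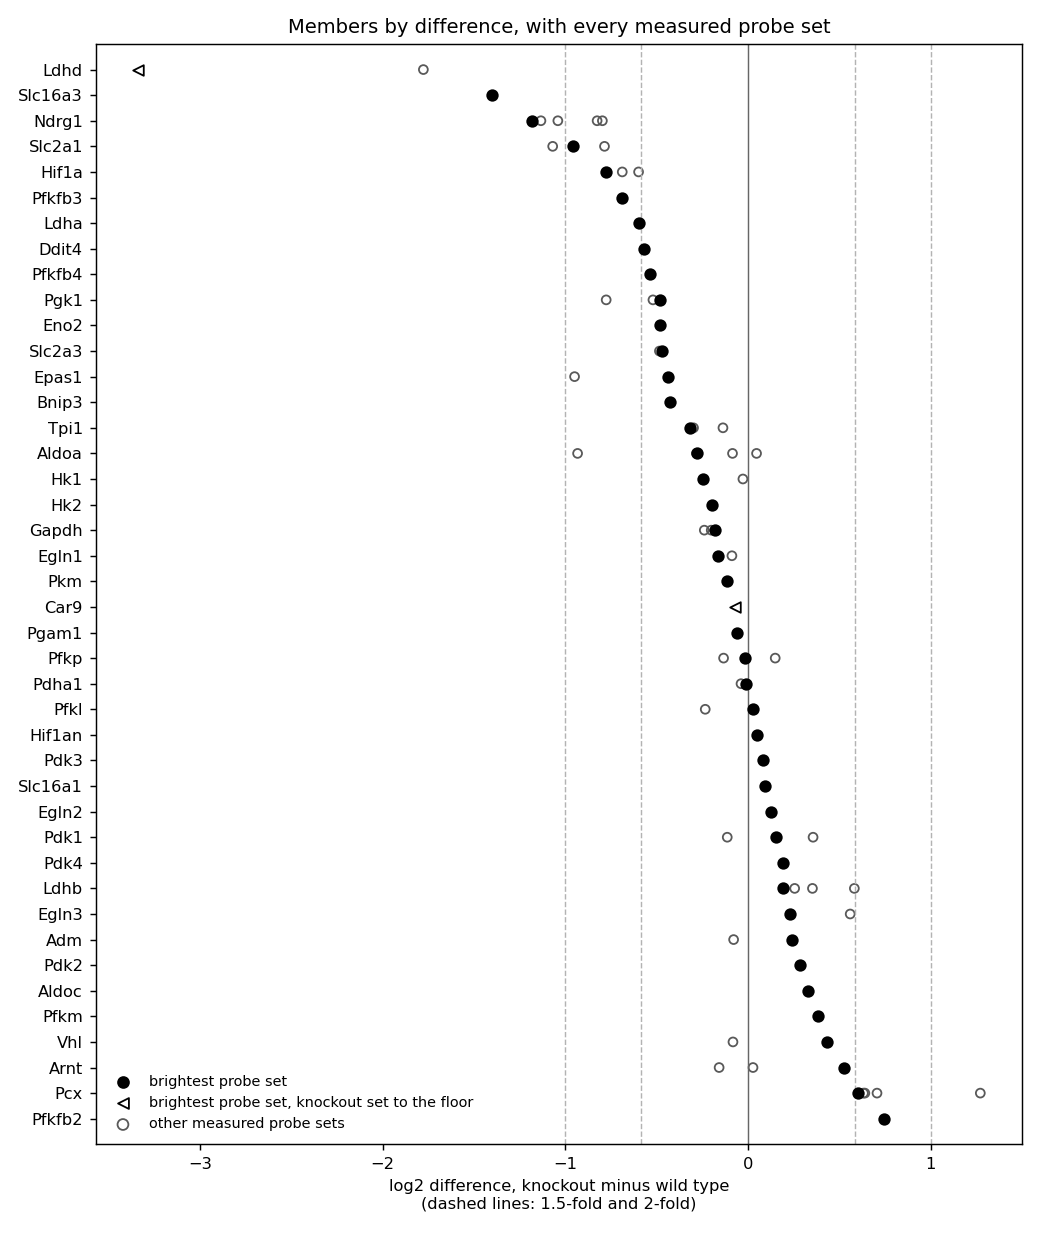
Log2 difference, knockout minus wild type, of the 42 measured genes in order of their brightest probe set (filled), with their other measured probe sets (open circles); triangles mark the 2 genes that lay under the floor in the knockout. Ndrg1, Slc2a1 and Hif1a have all probe sets past 1.5-fold lower and Pcx all past 1.5-fold higher, while Arnt and Aldoa have probe sets on both sides of 0.

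The lactate group held the largest differences and both directions, 3 of 5 being lower, with a median of -0.60, or -0.25 over the 4 that reached both floors. Ldha, the HIF-responsive lactate dehydrogenase subunit that favours lactate formation, gave 3862 (wild type) and 2555 (knockout), 1.51-fold lower. Ldhb, the subunit that favours lactate oxidation, gave 1420 and 1624, 1.14-fold higher, and 4 of 4 probe sets were higher, from 0.19 to 0.58 on the log2 scale. The Ldha signal was thus lower relative to Ldhb in all 4 pairings of probe sets, with log2 differences of -1.18 to -0.79. These pairings share the 1 Ldha probe set, and the pair was chosen after its values were seen. Ldha rests on 1 probe set, and its difference was -0.50 with quantile normalization and -0.52 without the loess trend, under 1.5-fold. Slc16a3, which encodes the lactate exporter MCT4, gave 136 and 51.6, 2.64-fold lower, also on 1 probe set. With the 70th-percentile floor, 121 and 127.6 on the arrays, the log2 difference of Slc16a3 was only -0.09, and with an offset of 50 it was -0.87, so its size rests on a dim knockout signal. Slc16a1, the broadly expressed carrier MCT1, gave 872 and 932, a log2 difference of 0.10. Slc16a3 was 2.82-fold lower relative to Slc16a1.

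Ldhd, the mitochondrial dehydrogenase of D-lactate, differed most of all 42 genes. Its brightest probe set gave 384 (wild type) and 22.2 (knockout), a fold of at least 10.1 downward because the knockout value was under its floor, and its other probe set gave 166.6 and 48.6, or -1.78 on the log2 scale. Both probe sets of Ldhd were lower, by amounts that differ widely. Ldhd acts on the mirror form of the lactate made in glycolysis and is not part of that pathway. With the 70th-percentile floor its difference was -1.59.

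Promoter sequences of Ldha, Ldhb, Ldhd, Slc16a3 and Slc2a1 are shown because these genes lay on both sides of 0 and because HIFs bind a short core. The 250 bases before the annotated start are printed, 5' to 3' on the gene's own strand, from RefSeq on GRCm38.p6. Capitals mark ACGTG or GCGTG, the hypoxia response core, on either strand, so CACGT and CACGC are the same letters read on the other strand and CACGTG is counted on both. They lie at chr4:119108495-119108744, plus strand for Slc2a1, chr7:46845554-46845803, plus strand for Ldha (the more upstream of its annotated starts), chr6:142507958-142508207, minus strand for Ldhb, chr8:111630337-111630586, minus strand for Ldhd and chr11:120948817-120949066, plus strand for Slc16a3.
Slc2a1 promoter: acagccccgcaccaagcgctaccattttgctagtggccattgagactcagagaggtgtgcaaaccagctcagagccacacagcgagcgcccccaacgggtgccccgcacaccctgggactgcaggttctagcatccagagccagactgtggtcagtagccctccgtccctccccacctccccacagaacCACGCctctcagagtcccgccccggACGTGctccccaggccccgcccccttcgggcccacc
Ldha promoter: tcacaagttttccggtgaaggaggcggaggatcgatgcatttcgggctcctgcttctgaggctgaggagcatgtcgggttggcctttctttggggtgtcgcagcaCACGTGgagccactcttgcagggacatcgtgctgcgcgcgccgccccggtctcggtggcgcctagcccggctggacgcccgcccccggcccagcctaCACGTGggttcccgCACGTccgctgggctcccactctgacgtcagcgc
Ldhb promoter: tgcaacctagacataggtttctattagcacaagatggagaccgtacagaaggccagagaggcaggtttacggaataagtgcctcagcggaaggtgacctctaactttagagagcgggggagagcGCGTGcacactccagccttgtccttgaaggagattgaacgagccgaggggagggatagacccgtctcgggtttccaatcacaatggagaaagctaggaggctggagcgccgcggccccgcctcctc
Ldhd promoter: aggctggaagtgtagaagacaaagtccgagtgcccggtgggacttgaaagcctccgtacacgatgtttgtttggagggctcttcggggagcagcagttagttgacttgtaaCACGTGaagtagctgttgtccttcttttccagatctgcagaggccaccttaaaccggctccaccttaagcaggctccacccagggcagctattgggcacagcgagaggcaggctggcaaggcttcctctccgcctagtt
Slc16a3 promoter: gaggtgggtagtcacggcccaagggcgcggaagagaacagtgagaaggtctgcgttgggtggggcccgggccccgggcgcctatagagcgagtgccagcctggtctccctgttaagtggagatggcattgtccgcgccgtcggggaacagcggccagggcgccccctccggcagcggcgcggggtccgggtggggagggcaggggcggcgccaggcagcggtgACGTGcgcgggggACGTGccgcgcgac

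In the full window of 300 bases, which includes 50 after the start, the core was found 7 times for Ldha, 2 times each for Slc2a1, Ldhd and Slc16a3, and 1 time for Ldhb. Slc16a1, the other higher gene of the lactate group, is not printed. Its window held the core 5 times, so these counts do not follow the direction of the difference. Of the 47 listed genes 43 were in the promoter table, with 64 starts, and Bnip3l, Epas1, Ndrg1 and Slc2a3 were not in it. The core occurred in 76.6% of these 64 windows and in 43.8% of all 32851 promoter windows. The windows of the listed genes were also richer in G and C, with a median of 60.5% against 52.7%, and a core that contains CG is more frequent in such sequence. All 6 genes that were at least 1.5-fold lower and in the table held a core, but so did 27 of 31 that were under 1.5-fold apart and both that were at least 1.5-fold higher. CACGTG, which was not among the planned motifs, was in 17.2% of the windows of listed genes and 7.15% of all windows. Counted by gene, where any window of a gene sufficed, it was in 4 of the 6 lower and both of the higher genes at least 1.5-fold apart. It was in 5 of the 31 under 1.5-fold apart. The lower genes with it include Ldhd, which passed through the wild-type array alone. No share over all genes was counted in this way, so these gene counts have no background. TGTTCT, a half-site of the progesterone and glucocorticoid receptors, searched on both strands, was in 15.6% of the windows of listed genes and 19.0% of all. A match of letters is not a binding site, and enhancers farther away were not examined.

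Genes that govern the entry of pyruvate into mitochondria were higher in the knockout in 5 of 6, with 57.7% of all measured genes higher, and had a median of 0.17. The median was 0.05 without the loess trend and 0.10 with quantile normalization. Pcx, pyruvate carboxylase, which makes oxaloacetate from pyruvate, gave 441 (wild type) and 669 (knockout), 1.52-fold higher. All 5 probe sets of Pcx were higher, from 0.60 to 1.27 on the log2 scale, and 4 of them are control probe sets placed along the transcript. After median centring the value was 0.55, and with an offset of 50 it was also 0.55, under 1.5-fold, as was the value of 0.58 without the loess trend. The pyruvate dehydrogenase kinases, which switch off pyruvate oxidation, were close to equal. Pdk1, a classical HIF target, gave 100.5 and 112, and its 3 measured probe sets ran from -0.11 to 0.36. Pdk2 gave 71.1 and 86.6, Pdk3 317 and 336, and Pdk4, the form induced by fasting and glucocorticoids, 151.6 and 173, all with differences of 0.08 to 0.28 on the log2 scale. Pdha1, the catalytic subunit of pyruvate dehydrogenase, gave 796 and 789, a difference whose sign turned under quantile normalization. For Pdk1, with measured probe sets on both sides of 0, the array gives no single direction.

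Of the HIF-responsive genes outside metabolism, 3 of the 4 that reached both floors were lower, against 42.5% of all genes so measured. Their median was -0.50. Ndrg1, a hypoxia and stress response gene, gave 434 (wild type) and 191 (knockout), 2.27-fold lower. Its other probe sets gave 366 and 178, 191 and 87.1, 155 and 87.5, and 141 and 81.1. All 5 were thus lower by at least 1.5-fold, from -1.18 to -0.80 on the log2 scale. Ddit4 (REDD1), an inhibitor of the growth kinase mTORC1 induced by hypoxia and by glucocorticoids, gave 908 and 611, 1.49-fold lower, just inside 1.5-fold. Bnip3, a mitophagy receptor, gave 1190 and 885, 1.35-fold lower. Adm, the vasodilator adrenomedullin, gave 120.1 and 141.7, 1.18-fold higher by its brightest probe set and -0.08 on the log2 scale in the other, the sign that also held without _s_at, _x_at and _a_at probe sets. Car9, the carbonic anhydrase often used as a hypoxia marker, was barely above the floor in the wild type at 39.8 and under it in the knockout at 15.9, so it gives no usable difference. Bnip3l could be read only from 3 probe sets shared with its pseudogene, which differed by 0.04 to 0.18 on the log2 scale.

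Of the 43 genes, 19 had more than 1 probe set that reached both floors. All such probe sets were lower in 10 of the 19 genes, or 52.6%, against 22.9% of the 4773 genes of the array with as many. All were higher in 2, or 10.5% against 35%, and 7 genes had probe sets on both sides of 0, or 36.8% against 42.1%. The 4773 genes were not matched for signal, and bright genes as a class were more often lower, as given above. Over the same 4773 genes, log2 differences of probe sets for the same gene had an SD of 0.25, or 1.19-fold, a spread between probe sets that leaves out the spread between animals. Of the genes named above, Hif1a, Slc2a1, Ndrg1, Pgk1, Tpi1 and Gapdh were lower and Ldhb and Pcx higher in every one of at least 3 probe sets. For Tpi1 and Ldhb all of these have names ending in _a_at or _x_at, so neither gene was measured without such probe sets.

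**Figure D3:**
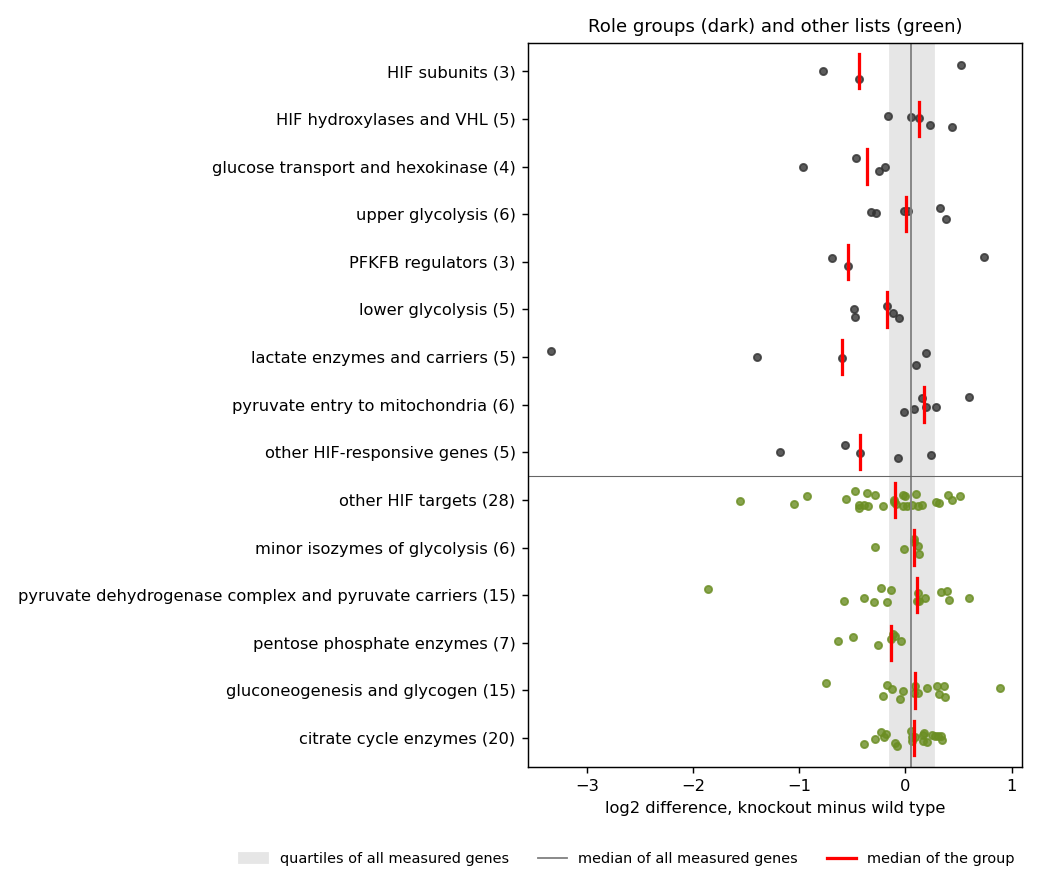
Log2 difference, knockout minus wild type, of each measured gene in the 9 role groups (dark) and in 6 further pathway lists (green), with the number of measured genes in brackets, red bars at the group medians and the quartiles and median of all measured genes in grey. Points are spread vertically only to separate them. HIF subunits, glucose transport, PFKFB, lower glycolysis, lactate and other HIF-responsive genes have medians below the lower quartile of all genes, with lower glycolysis at -0.02 after quantile normalization, while the citrate cycle genes lie around the median of all genes.

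Neighbouring pathways were read from 6 lists of genes, also chosen with earlier results of these data known. Of all measured genes, 42.3% were lower and 57.7% higher, the shares to set beside the counts of each list. Among 28 measured other HIF targets, 18 were lower and 10 higher, with a median of -0.09. Of these targets, 3 were at least 1.5-fold lower (4.75% of all genes) and 0 at least 1.5-fold higher (6.54% of all genes). These 3 were the repressor gene Bhlhe40 (1048 and 356, 2.94-fold), the mitochondrial adenylate kinase gene Ak4 (257 and 124, 2.06-fold) and the endothelin gene Edn1 (84.3 and 44.3, 1.90-fold). Angptl4, a secreted inhibitor of lipoprotein lipase, was 1.48-fold lower at 1329 and 899.5. These 4 are the largest differences of that list, while Vegfa, also in it, gave 274 and 274. The list of pyruvate dehydrogenase and pyruvate-linked genes had a median of 0.11 over 15, whose sign turned under 3 of 8 alternatives, with 7 lower and 8 higher. Its largest difference was in Gpt2, the mitochondrial alanine aminotransferase that interconverts pyruvate and alanine. Gpt2 gave 562 (wild type) and 154 (knockout), 3.64-fold lower, and 4 of 4 probe sets were lower, from -1.86 to -0.73 on the log2 scale. Gpt, the cytosolic enzyme of the same reaction, was dim at 64.9 and 43.5, 1.49-fold lower, while the malic enzyme gene Me3 was 1.51-fold and the phosphatase regulator gene Pdpr 1.33-fold higher.

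Pentose phosphate enzymes, which draw glucose 6-phosphate away from glycolysis, were lower in 7 of 7, against 42.3% of all measured genes. Their median was -0.14. Of 8 listed, only these 7 had a single-symbol probe set, and the glucose 6-phosphate dehydrogenase gene G6pdx is not among them. Pgls at -0.04 and Tkt at -0.09 on the log2 scale were close to equal, and the other measured Tkt probe set gave 0.01. Rpe was 1.55-fold lower by its brightest probe set, its other measured one giving 0.19 on the log2 scale, H6pd 1.41-fold, Taldo1 1.19-fold and Rpia 1.10-fold lower. Gluconeogenesis and glycogen genes had a median of 0.09 over 15, with 6 lower and 9 higher. Pygm, muscle glycogen phosphorylase, was 1.85-fold higher at dim signals of 54.5 and 101, Ppp1r3c, a glycogen-targeting phosphatase subunit, was 1.68-fold lower, and Gbe1 and Ppp1r3b were 1.29-fold and 1.28-fold higher. Citrate cycle enzymes had a median of 0.08 over 20, with 13 higher, 7 lower and 0 past 1.5-fold, the largest being Dlst (1.31-fold lower), Ogdh (1.27-fold higher), Suclg2 (1.26-fold higher) and Idh2 (1.24-fold higher). Dlst probe sets ran from -0.65 to 0.10 on the log2 scale. Of 18 minor glycolytic isozymes and carriers, 6 were measured, with a median of 0.08 whose sign turned under 1 of 8 alternatives, and the 4 farthest from equality, Slc2a8 (1.22-fold lower), Eno3, Bpgm and Slc2a4 (1.10-fold, 1.09-fold and 1.06-fold higher), were all under 1.5-fold.

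The 9 genes at least 1.5-fold apart were also followed through 8 other ways of processing. Hif1a, Slc2a1, Ndrg1 and Ldhd stayed past 1.5-fold in 8 of 8, with ranges of -0.83 to -0.69, -1.02 to -0.79, -1.26 to -0.996 and -4.11 to -1.59 on the log2 scale. Slc16a3 stayed past it in 7 of 8 and Pfkfb3 in 6 of 8, Ldha in 5 of 7 and Pcx in 5 of 8, and Pfkfb2 in 6 of 7. All 9 kept their direction in each alternative that could measure them. Just outside 1.5-fold lay Ddit4 at -0.57 and Pfkfb4 at -0.54, and on the other side Arnt at 0.53. Ddit4 passed 1.5-fold in 1 and Pfkfb4 in 3 of 8 alternatives.

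**Figure D4:**
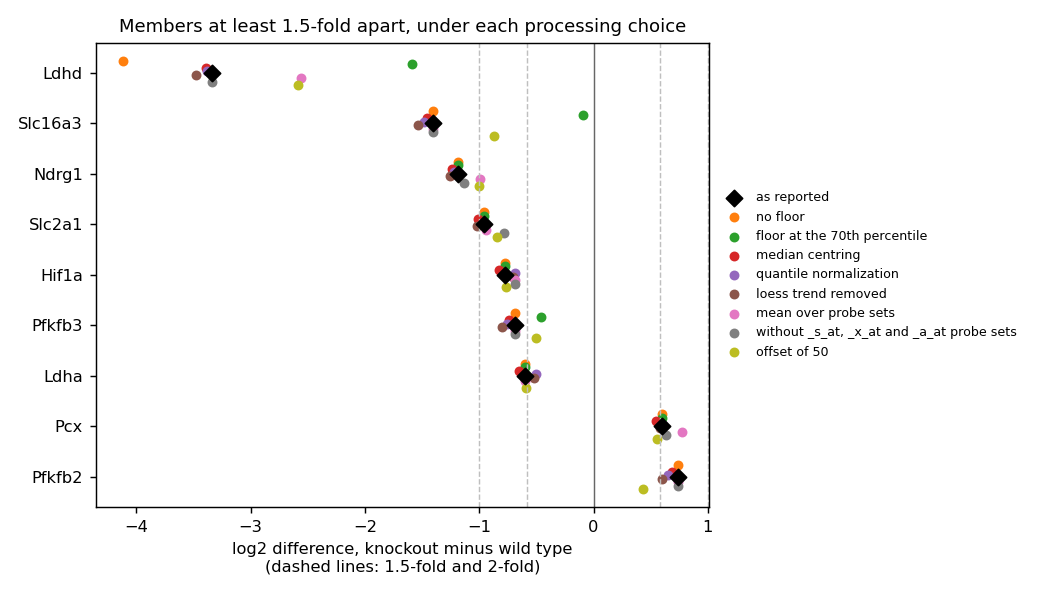
Log2 difference, knockout minus wild type, of the 9 genes at least 1.5-fold apart, as reported (black diamonds) and under each of 8 other processing choices (coloured points, shifted vertically to separate them); dashed lines mark 1.5-fold and 2-fold. Slc16a3 moves from -1.40 to -0.09 with the higher floor, and Hif1a and Ndrg1 stay within a narrow range.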

How the data were processed

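The deposited values are linear intensities, 1 per probe set and array, made by the authors with MAS5 in Affymetrix Expression Console (version 1), per the submitters' processing notes. Over the 45101 probe sets, the mean after trimming 2% at each end was 150.001 on both arrays, as a single scaling factor per array would give. MAS5 subtracts mismatch probes, which makes low signals noisy, and per the labels' protocols the RNA was labelled with an Affymetrix 3' expression kit. Genome build and detection calls are not given in the sources used here.

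From these values, signals were floored at each array's median and taken to log2 (pandas 2.3.3, Python 3.11.15). Genes were named from the platform annotation, in which 34958 probe sets carry 1 symbol, 932 several and 9160 none. Of the 64 control probe sets, the 13 with a gene symbol were kept as probe sets of that gene, which gives Gapdh a value, and 51 were left out. RefSeq gene IDs matched 34754 of the single-symbol probe sets, and 1 listed symbol was updated. The 8 alternatives were no floor, a 70th-percentile floor, median centring, quantile normalization, loess (span 0.3, statsmodels 0.14.6), the mean over probe sets, no _s_at, _x_at or _a_at probe sets, and an offset of 50. The 47 genes, the 6 pathway lists and the 8 marker lists were chosen with earlier results of these data known. Named genes were each listed gene, the 4 largest differences per pathway list, and from each marker list the defining markers and the 2 largest differences, of which the text gives examples. Pairs of genes were chosen after their values were seen. The calculation was tested on simulated data. With 2 arrays, their number limits the precision.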

Additional observations from a re-analysis of the deposited data

How the results depend on the processing

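Each count and median of the 47 genes was recomputed under 8 alternatives. The number at least 1.5-fold higher in the knockout, 2 as reported, was 1 with the 70th-percentile floor, 1 after median centring, 1 without the loess trend and 0 with the offset of 50. The other counts moved by at most 1.5 times: 2 to 4 genes were at least 2-fold lower and 5 to 9 at least 1.5-fold lower. The median log2 difference of the set ranged from -0.16 with no floor to -0.02 with quantile normalization and kept its sign in 8 of 8. The median of the lactate group, -0.60, was -0.09 with the higher floor and -1.40 without _s_at, _x_at and _a_at probe sets, where fewer genes were tested. Among other groups, the median ranged from -0.69 to -0.36 for HIF subunits, 0.07 to 0.18 for hydroxylases and VHL, -0.23 to -0.02 for lower glycolysis, 0.05 to 0.24 for pyruvate entry, 0.03 to 0.12 for gluconeogenesis and glycogen and 0.03 to 0.14 for the citrate cycle. Over all measured genes, 195 at least 2-fold lower and 130 higher became 1907 and 1447 with no floor, 128 and 35 with the higher floor, and 128 and 29 with the offset, and 80 were 2-fold higher without the loess trend. At 1.5-fold, 538 lower and 740 higher became 2979 and 2720, 322 and 265, and 351 and 287 in the same order, and 471 were higher without the loess trend. Where not stated, the cause was not tested. Leaving out an array was not possible with 1 per genotype, and no slide or scan batch was given. No paired analysis was possible because each genotype had 1 array. Signals near the floor, as for Eno2, Car9, Pfkfb2 and the knockout values of Slc16a3 and Ldhd, limit what can be read from them.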
